A study of Mus musculus with 8 samples.

Results

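The transcripts examined were those of the epidermal growth factor (EGF) receptor family and its ligands in the naive mouse cornea. The family was taken by name as 10 genes, namely the receptors Egfr, Erbb2 and Erbb3 and the ligands Egf, Tgfa, Hbegf, Areg, Ereg, Btc and Epgn, out of 54532 genes in the table. All 10 genes had a value above the filter used for testing. Total RNA came from 4 corneas of BALB/c mice and 4 corneas of C57BL/6N mice, which are unmodified inbred strains. All mice were male, and the corneas carried no suture or other treatment. The ages of the mice used for sequencing are not given in the sources used here, and whether each cornea came from a separate mouse is not given either, so p-values describe the spread between these corneas. The study compared the strains because their corneas differ in lymphatic vessels at the limbus, the border of the cornea.

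As background, the receptors are tyrosine kinases that pair on the cell surface once a ligand is bound. Egfr binds Egf, Tgfa, Areg, Epgn, Hbegf, Btc and Ereg, Erbb2 binds no known ligand and acts as a partner, and Erbb3 has a weak kinase and binds neuregulins. The ligands are made as membrane proteins and are cut free by metalloproteases. In the cornea, this pathway is known for driving the migration and renewal of epithelial cells, above all after wounding.

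The values were regularized log (rlog) values, which are on a log2 scale, normalized for library size and pulled towards the mean of the gene, more so where few reads were counted. For genes with few reads, a difference in rlog values is therefore smaller than the true fold change on the log2 scale, and differences are given as BALB/c minus C57BL/6N. Abundant members were affected too. In every member the rlog difference was smaller in size than the log2 ratio of normalized reads. The values were -0.21 against -0.28 in Egfr, -0.22 against -0.30 in Erbb3 and -0.19 against -0.23 in Hbegf. Differences and intervals on the rlog scale are therefore not fold changes of reads. Read counts were recovered from the rlog values and summed to between 36.7 and 41.2 M per BALB/c cornea and from 29.7 M upwards, with a median of 36.1 M, per C57BL/6N cornea. Corneal epithelial markers were abundant in all corneas, with between 1640134 and 1971428 normalized reads summed over 8 markers in BALB/c and between 1698681 and 1943898 in C57BL/6N. The mean rlog value of 9 stromal keratocyte markers was 12.12 in BALB/c cornea 2, 11.18 in C57BL/6N cornea 3 and 11.32 in C57BL/6N cornea 4, against values between 13.85 and 14.17 in the other 5 corneas. Lens and pigment cell markers were highest in BALB/c corneas 1 and 4. With an adjusted p of 0.01 or less from limma as the threshold, 1458 of 25402 genes differed between the strains.

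Of the 10 members, those with the largest strain differences were the ligands of a gene cluster on chromosome 5. Areg (amphiregulin), Ereg (epiregulin) and Btc (betacellulin) were lower in BALB/c corneas, and the fourth ligand of the cluster, Epgn (epigen), was also lower in every BALB/c cornea but missed the threshold. No receptor and none of the ligands encoded elsewhere passed it. In all, 3 of the 10 members were called, each of them lower in BALB/c, while 5.74% of all genes tested were called, 2.91% lower and 2.83% higher. All 4 BALB/c corneas lay below all 4 C57BL/6N corneas in 4 of the 10 members, against 9.58% of all genes tested, and above them in 0 members, against 8.75%. The median difference of the members was -0.22, and that of all genes tested was 0.01.

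**Figure D1:**
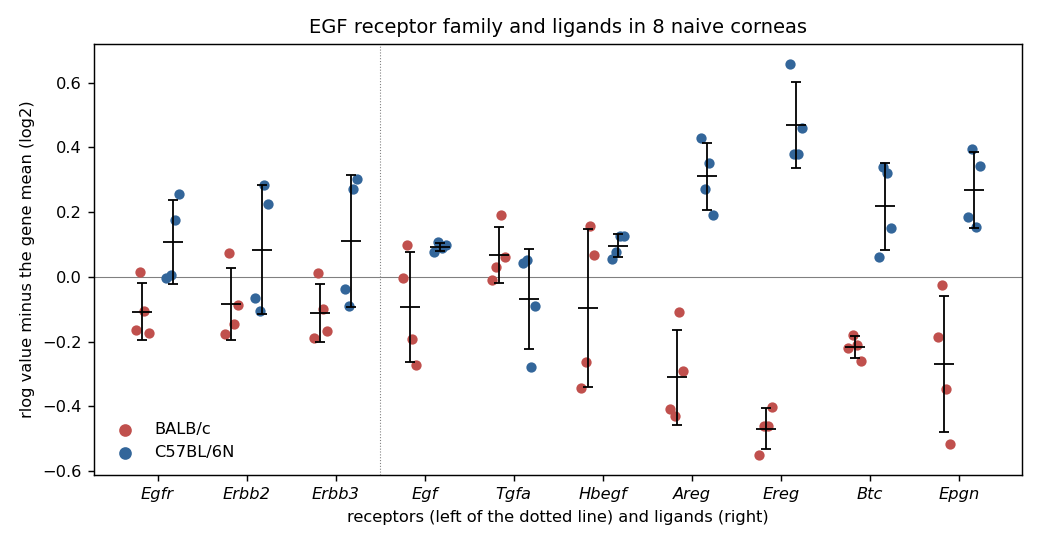
Values of the 10 members in 8 corneas, as rlog value minus the mean of the gene over all corneas (vertical axis, log2), with points for single corneas and bars for the mean and SD of 4 corneas per strain. The BALB/c points lie wholly below the C57BL/6N points for Areg, Ereg, Btc and Epgn, and the strains overlap in the other 6 genes.

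Ereg codes for a ligand of Egfr and Erbb4. On the rlog scale it had the largest strain difference of the 10 members, while Areg had the larger ratio of reads. Its rlog value was 8.46, 8.55, 8.55 and 8.61 in BALB/c corneas 1 to 4 and 9.67, 9.39, 9.39 and 9.47 in C57BL/6N corneas 1 to 4. The gap between the highest BALB/c and the lowest C57BL/6N cornea was wider than the spread within either strain. Recovered reads were 339, 369, 342 and 351 in BALB/c and 959, 752, 593 and 766 in C57BL/6N, and normalized reads were 319 ± 20.6 (SD, n = 4) against 822 ± 107 (SD, n = 4). On the rlog scale Ereg fell by 0.94 in BALB/c against C57BL/6N (SE 0.0777), with a limma p of 5.18e-05 after Benjamini-Hochberg adjustment, and the log2 ratio of normalized reads was -1.37. An exact two-sided permutation test over the corneas gave p = 0.0286, the smallest that 4 against 4 allows. Without each cornea in turn, the difference stayed between -0.97 and -0.88.

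Areg codes for a ligand of Egfr that is released by Adam17. It was weakly expressed, with 35, 33, 58 and 40 recovered reads in BALB/c corneas 1 to 4 and 122, 99, 88 and 84 in C57BL/6N corneas 1 to 4. Every BALB/c cornea had fewer reads than every C57BL/6N cornea. The rlog values were 5.63, 5.61, 5.93 and 5.75 in BALB/c and 6.47, 6.31, 6.39 and 6.23 in C57BL/6N. The strains differed by -0.62 in rlog values (SE 0.1, adjusted p = 0.00329 from limma), whereas the log2 ratio of normalized reads was -1.48, which shows how far the rlog scale shrinks a gene of this level. The exact permutation p was 0.0286. The call was lost in 5 of 8 fits without a single cornea, with an adjusted p from limma of 0.0144 without BALB/c cornea 1, 0.0116 without BALB/c cornea 2, 0.0115 without BALB/c cornea 4, 0.0118 without C57BL/6N cornea 1 and 0.0114 without C57BL/6N cornea 3.

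Btc codes for a ligand of Egfr and Erbb4. Its rlog value was 7.99, 8.03, 8.0 and 7.95 in BALB/c and 8.27, 8.55, 8.53 and 8.36 in C57BL/6N. The BALB/c corneas were close together, with an SD of 0.03 against 0.13 in C57BL/6N. Recovered reads were 271, 277, 251 and 230 in BALB/c and 311, 423, 327 and 330 in C57BL/6N. The strains differed by -0.44 in rlog values (SE 0.0788, adjusted p = 0.00635 from limma, exact permutation p = 0.0286), and the log2 ratio of normalized reads was -0.69. The call was kept in the fit without C57BL/6N cornea 1 (adjusted p = 0.00529 from limma). It was lost in the fits without each of the other 7 corneas, with values between 0.0157 without C57BL/6N cornea 4 and 0.0238 without BALB/c cornea 4.

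Epgn codes for a ligand of Egfr with low affinity. Its rlog value was 8.73, 8.89, 8.57 and 8.40 in BALB/c and 9.10, 9.31, 9.07 and 9.26 in C57BL/6N, again without overlap. Recovered reads were 467, 538, 359 and 291 in BALB/c and 570, 714, 448 and 643 in C57BL/6N. BALB/c corneas 1 and 2 were higher than BALB/c corneas 3 and 4, and the SD was 0.21 in BALB/c against 0.12 in C57BL/6N. The strains differed by -0.54 in rlog values (SE 0.109, 95% interval -0.78 to -0.29, adjusted p = 0.0117 from limma, exact permutation p = 0.0286). The log2 ratio of normalized reads was -0.77. Without BALB/c cornea 2, the difference was -0.62 and the adjusted p from limma was 0.00652, which passes the threshold.

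The genes of these ligands lie within 376 kb of chromosome 5, from 91027464 to 91402994 (GRCm38). Epgn spans 91027464 to 91035215 on the plus strand, Ereg 91074622 to 91093646 on the plus strand, Areg 91139599 to 91148432 on the plus strand and Btc 91357261 to 91402994 on the minus strand. The annotation places no other protein-coding gene between them. Of the 3 noncoding genes in the interval, the antisense gene Gm19610, which overlaps the start of Ereg on the opposite strand, was the only gene tested. It had between 0 and 3 reads in BALB/c and between 4 and 8 in C57BL/6N (difference -0.10, adjusted p = 0.0912 from limma). Whether reads were assigned by strand is not given in the sources used here, so reads from the shared stretch cannot be told apart, but the reads of Gm19610 were few beside those of Ereg. The SD of the rlog values within a strain was at most 0.21 in each of these ligands.

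The 3 nearest tested protein-coding genes on either side were chosen after the members' values were seen. On the side of Epgn, the neutrophil chemokines Cxcl1 and Cxcl2 were also lower in BALB/c, with differences of -0.65 (adjusted p = 0.00564) and -1.26 (adjusted p = 0.00243). Mthfd2l, an enzyme of mitochondrial folate metabolism that lies between these chemokines and Epgn, had a difference of -0.09 (adjusted p = 0.651). On the side of Btc, Parm1 was higher in BALB/c by 0.41 (adjusted p = 0.00111), while Rchy1 had -0.12 (adjusted p = 0.3) and Odaph 0.13 (adjusted p = 0.0612). These adjusted p-values are from limma. Genes that were lower, higher and not called thus lay near each other in this stretch.

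**Figure D2:**
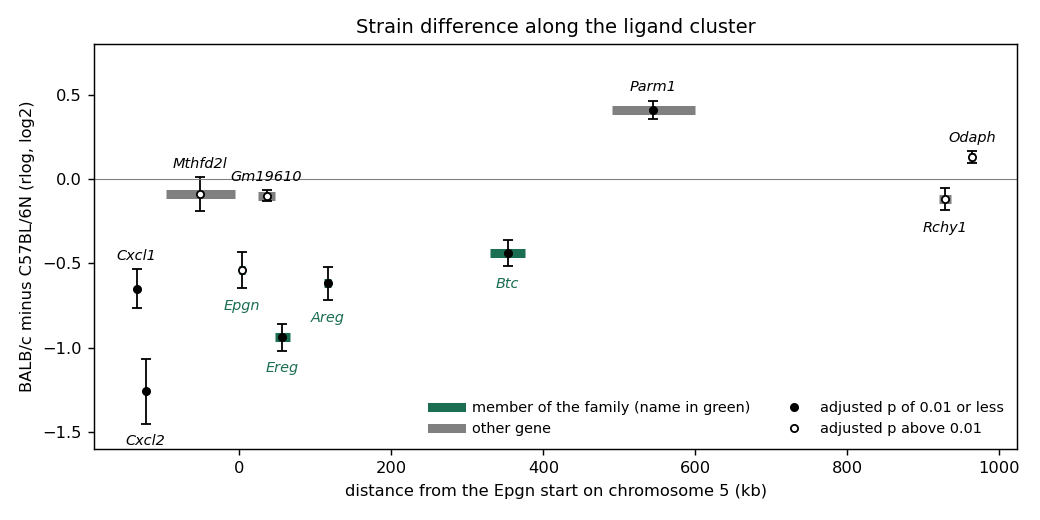
Strain difference of the tested genes along the ligand cluster, as BALB/c minus C57BL/6N rlog value (vertical axis, log2) against the distance from the Epgn start in kb (horizontal axis), with thick lines for gene spans, points for the difference and bars for its standard error from limma. Epgn, Ereg, Areg and Btc lie between -0.44 and -0.94, Mthfd2l lies near 0 at -0.09, and Parm1 lies above 0 at 0.41.

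The start regions of the cluster ligands are printed because these genes moved in the same direction and lie side by side. RefSeq (GRCm38.p6) start regions, from 250 bases before to 50 bases after the start site, were matched for 7 of the 10 members and for 3 of the 4 cluster ligands. They are Epgn at chr5:91027267-91027566 on the plus strand, Areg at chr5:91139349-91139648 on the plus strand and Btc at chr5:91402945-91403244 on the minus strand. Capitals mark matches, on either strand, to the TATA box TATAAA, the AP-1 site TGANTCA, the cAMP response element TGACGTCA, the GC box GGGCGG and the CCAAT box CCAAT.
Epgn: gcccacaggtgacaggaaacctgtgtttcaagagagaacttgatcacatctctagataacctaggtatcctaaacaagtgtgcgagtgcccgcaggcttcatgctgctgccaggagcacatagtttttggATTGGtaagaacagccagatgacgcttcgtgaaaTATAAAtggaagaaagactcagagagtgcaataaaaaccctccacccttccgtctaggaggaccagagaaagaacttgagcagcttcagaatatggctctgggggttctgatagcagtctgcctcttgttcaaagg
Areg: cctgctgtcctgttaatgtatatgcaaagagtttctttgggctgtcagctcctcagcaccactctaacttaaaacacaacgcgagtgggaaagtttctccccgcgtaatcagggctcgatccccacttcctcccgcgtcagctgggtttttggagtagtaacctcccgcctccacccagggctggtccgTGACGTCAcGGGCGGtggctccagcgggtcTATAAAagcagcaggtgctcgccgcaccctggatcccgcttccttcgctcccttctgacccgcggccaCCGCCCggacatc
Btc: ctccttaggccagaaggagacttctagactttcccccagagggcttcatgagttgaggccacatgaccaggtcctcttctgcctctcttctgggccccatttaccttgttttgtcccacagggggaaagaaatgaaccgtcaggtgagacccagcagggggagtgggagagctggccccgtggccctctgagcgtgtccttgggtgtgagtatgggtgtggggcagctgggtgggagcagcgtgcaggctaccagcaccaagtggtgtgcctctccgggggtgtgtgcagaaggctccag

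None of these motifs was in all 3 start regions, and TATAAA was in those of Areg and Epgn. That of Areg held TATAAA at -31, TGACGTCA at -61 and GGGCGG at -52 and, on the minus strand, at 38, counted from the RefSeq start site. That of Epgn held TATAAA at -86 and CCAAT on the minus strand at -120, and that of Btc held no match. The RefSeq start site of Epgn lies downstream of the gene start given above (91027464), so both matches lie closer to that gene start. No matches overlapped. Of 32851 RefSeq start regions of the same length, TATAAA was in 13.6%, TGANTCA in 7.81%, TGACGTCA in 1.79%, GGGCGG in 35.7% and CCAAT in 37.4%. The GC content was 47.3% in Epgn, 59.3% in Areg and 60.3% in Btc. A match describes letters in the window and not a bound site.

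The ligands encoded outside the cluster did not pass the threshold. Hbegf (chromosome 18), which codes for heparin-binding EGF-like growth factor, had rlog values of 11.89, 11.97, 12.39 and 12.30 in BALB/c and 12.29, 12.31, 12.36 and 12.36 in C57BL/6N. BALB/c corneas 1 and 2 lay below all C57BL/6N corneas, while BALB/c cornea 3 lay above them. The difference was -0.19 (95% interval -0.43 to 0.05, adjusted p = 0.32 from limma, exact permutation p = 0.314).

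Egf (chromosome 3), the ligand that gave the family its name, had rlog values of 8.40, 8.50, 8.21 and 8.13 in BALB/c and 8.48, 8.51, 8.49 and 8.50 in C57BL/6N. The C57BL/6N corneas differed by no more than 0.03, and BALB/c cornea 2 lay within their range. The difference was -0.19 (95% interval -0.38 to 0.01, adjusted p = 0.238 from limma, exact permutation p = 0.0857).

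Tgfa (chromosome 6), coding for transforming growth factor alpha, was the only member with a difference above 0. It had 1234, 1278, 1484 and 1311 normalized reads in BALB/c and 1293, 1309, 953 and 1137 in C57BL/6N. The strains overlapped, and the lowest values were those of C57BL/6N corneas 3 and 4. The rlog difference was 0.13 (95% interval -0.05 to 0.32, adjusted p = 0.372 from limma, exact permutation p = 0.229). Without the 3 corneas with low stromal markers it was 0.03.

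Between genes, levels were compared as reads per kb of exon. Over the 8 corneas the order on the log2 scale of rlog per kb was Erbb3 (10.69), Erbb2 (10.56), Egfr (10.47), Hbegf (9.96), Epgn (8.06), Tgfa (7.58), Ereg (6.97), Btc (6.03), Areg (5.76) and Egf (4.91). The ranges over corneas overlapped between Erbb3 and Erbb2, Erbb2 and Egfr, Epgn and Tgfa, Tgfa and Ereg, and Btc and Areg. The other neighbours in the order were apart in every cornea. Egfr, Erbb2 and Erbb3 were thus above all ligands of the set. Hbegf stood apart from the other 6 ligands, with 930 ± 208 normalized reads per kb in BALB/c and 1088 ± 33.4 in C57BL/6N (SD, n = 4). Epgn had 206 ± 44.9 against 352 ± 40.3 and Ereg 77.2 ± 4.99 against 199 ± 25.9 normalized reads per kb in BALB/c and C57BL/6N.

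In the make-up of the ligand transcripts, the shares of some ligands separated the strains and those of others overlapped. Of the normalized reads per kb summed over the 7 ligands, the 4 cluster ligands held 28, 29.1, 20.5 and 19.9% in BALB/c corneas 1 to 4 and 36.3, 36.5, 34.4 and 35.3% in C57BL/6N corneas 1 to 4. The strains did not overlap in this sum, which was largely set by grouping the ligands already seen to be lower in BALB/c. The BALB/c corneas spread more widely. Ereg held 5.09 ± 0.474% in BALB/c and 9.85 ± 1.31% in C57BL/6N, and Areg 2.02 ± 0.376% against 4.31 ± 0.678% (SD, n = 4). The other cluster ligands overlapped between the strains, with 13.8 ± 4.32% against 17.4 ± 1.68% for Epgn and 3.42 ± 0.478% against 4.11 ± 0.567% for Btc. Tgfa held 13.4 ± 0.854% against 8.92 ± 1.16%, with every BALB/c cornea above every C57BL/6N cornea. Hbegf had the largest share in both strains, with 60.3 ± 6.16% and 53.8 ± 2.14%, and BALB/c corneas 1 and 2 lay among the C57BL/6N values. The shares of a cornea add up to a fixed total, so a lower share of some ligands raises the others, and no test was made.

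**Figure D3:**
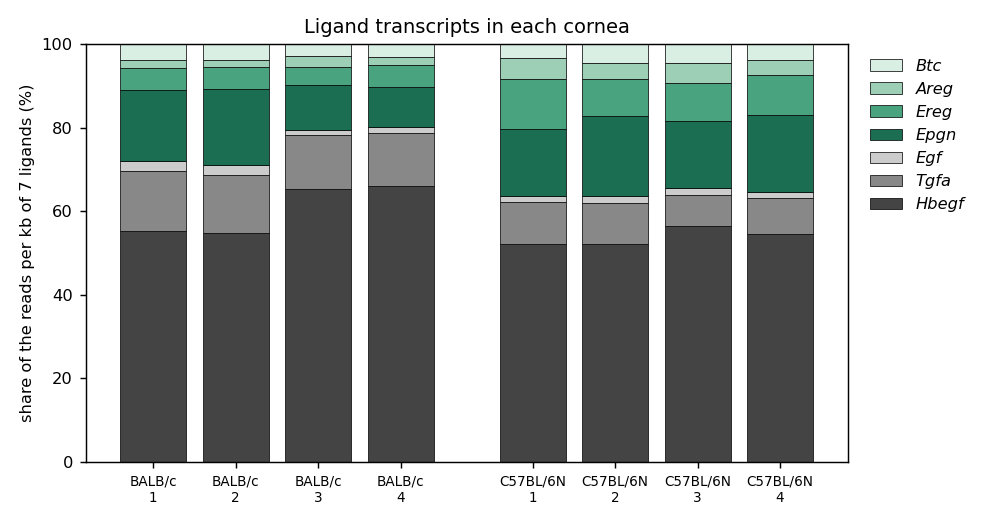
Shares of 7 ligands in their summed normalized reads per kb (vertical axis, percent), 1 bar per cornea, with the cluster ligands of chromosome 5 in green and the others in grey. The green part takes between 19.9 and 29.1% in BALB/c and between 34.4 and 36.5% in C57BL/6N.

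The receptors were expressed at a high level in both strains and none passed the threshold. Egfr (chromosome 11, 16752203 to 16918158, plus strand) had rlog values of 13.81, 13.99, 13.87 and 13.80 in BALB/c and 13.97, 13.98, 14.15 and 14.23 in C57BL/6N. BALB/c cornea 2 lay above C57BL/6N corneas 1 and 2, and the other 3 BALB/c corneas lay below all C57BL/6N corneas. The difference was -0.21 (95% interval -0.37 to -0.05, adjusted p = 0.0969 from limma, exact permutation p = 0.0857), at between 14182 and 19089 recovered reads per cornea.

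Erbb2 (chromosome 11, 98412470 to 98437716, plus strand) had 12.77, 13.02, 12.80 and 12.86 in BALB/c and 12.88, 12.84, 13.23 and 13.17 in C57BL/6N on the rlog scale. Its strains overlapped, with a difference of -0.17 (95% interval -0.39 to 0.06, adjusted p = 0.352 from limma, exact permutation p = 0.2). Erbb3 (chromosome 10, 128567523 to 128589652, minus strand) had 13.09, 13.29, 13.18 and 13.11 in BALB/c and 13.24, 13.19, 13.55 and 13.58 in C57BL/6N. Its strains overlapped through BALB/c cornea 2, with a difference of -0.22 (95% interval -0.44 to -0.00, adjusted p = 0.205 from limma, exact permutation p = 0.114).

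In each of Egfr, Erbb2 and Erbb3, the highest values of a strain were those of the corneas with low stromal markers, BALB/c cornea 2 and C57BL/6N corneas 3 and 4. Without these 3 corneas, the difference was -0.15 for Egfr (adjusted p = 0.0828 from limma), -0.04 for Erbb2 (adjusted p = 0.606) and -0.08 for Erbb3 (adjusted p = 0.331). In bulk tissue, fewer cells of a type and less RNA per cell cannot be told apart. The receptors moved together from cornea to cornea, which was not particular to them. The mean rlog value of 8 corneal epithelial markers was also highest in BALB/c cornea 2 (15.96) and C57BL/6N corneas 3 and 4 (16.02 and 16.06). The other corneas lay between 15.72 and 15.91, though the single markers Krt14 and Aldh3a1 did not follow this order. Within a cornea, the rlog value of Erbb2 minus that of Egfr was -1.01 ± 0.06 in BALB/c and -1.05 ± 0.10 in C57BL/6N (SD, n = 4), a strain difference of 0.04. For Erbb3 minus Egfr the strain difference was -0.01, and for Erbb3 minus Erbb2 it was -0.05. Exact two-sided permutation tests of these 3 ratios between the strains gave p = 0.486, 0.914 and 0.2 (0.729, 0.914 and 0.6 after Benjamini-Hochberg adjustment).

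**Figure D4:**
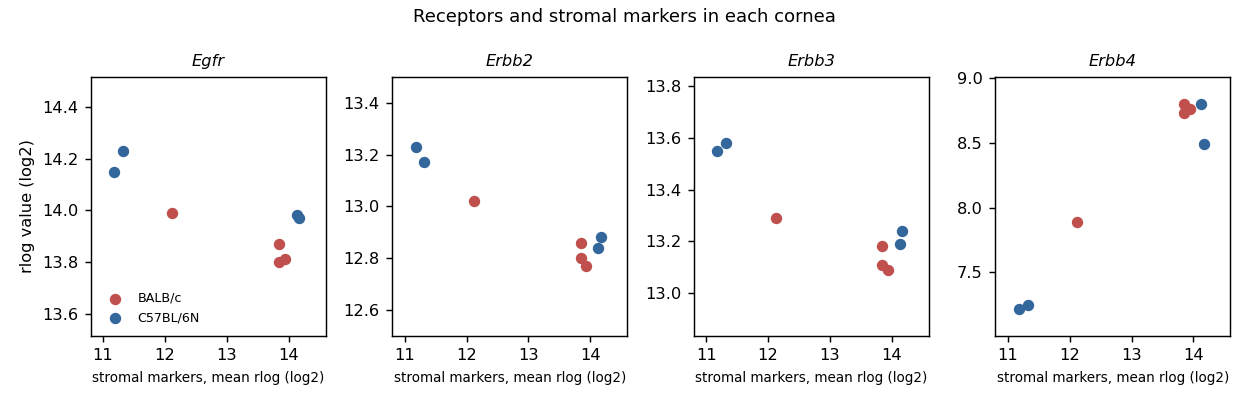
Receptor values (vertical axes, rlog, log2, with a wider range for Erbb4) against the mean rlog value of 9 stromal keratocyte markers (horizontal axes, log2) in single corneas of both strains. Egfr, Erbb2 and Erbb3 were highest, and Erbb4 lowest, in the 3 corneas whose stromal mean was at most 12.12.

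Erbb4, the fourth receptor of the family, is no member of the set described here but shares ligands with it. Its rlog values were 8.76, 7.89, 8.80 and 8.73 in BALB/c and 8.49, 8.80, 7.22 and 7.25 in C57BL/6N. It was low in the 3 corneas with low stromal markers, the reverse of the other receptors. The strain difference was 0.61 (95% interval -0.24 to 1.45, adjusted p = 0.372 from limma, exact permutation p = 0.229), and without these corneas it was 0.12 (adjusted p = 0.532). Per kb, Erbb4 had 35.5 ± 12.5 normalized reads in BALB/c and 22.4 ± 17.9 in C57BL/6N (SD, n = 4), while Egfr had 1294 ± 107 and 1573 ± 183.

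Of the neuregulins, which are ligands of Erbb4 and, for some of them, also of Erbb3, Nrg4 was higher in BALB/c. It had 44, 65, 59 and 65 recovered reads in BALB/c and 17, 15, 19 and 14 in C57BL/6N, without overlap. The rlog difference was 0.44 (adjusted p = 0.00952 from limma, exact permutation p = 0.0286) and the log2 ratio of normalized reads was 1.58. The call of Nrg4 was lost in 7 of 8 fits without a single cornea, with an adjusted p of up to 0.0334 without C57BL/6N cornea 4. The exception was the fit without BALB/c cornea 1 (adjusted p = 0.00924). Nrg1 was also separated between the strains, with a difference of 0.38 that missed the threshold (adjusted p = 0.0195 from limma), and Nrg2 overlapped, with -0.22 (adjusted p = 0.347). Nrg3 was listed at 0 in all corneas.

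The other genes of the pathway were described by 5 lists, which together held 78 genes, 77 of them tested. The limma fit called 7 of them, 3 higher and 4 lower in BALB/c, or 9.09%, beside 5.74% of all genes tested. With quantile normalization 5 were higher and 4 lower, and with median centring 1 was higher and 2 were lower. The median difference of the 77 genes was -0.01. Of the ligand-shedding list, 1 of 10 genes was called. This was Adam17, the protease that releases Tgfa, Areg, Ereg, Hbegf and Epgn, with rlog values of 11.29, 11.49, 11.30 and 11.26 in BALB/c and 11.72, 11.74, 11.82 and 11.93 in C57BL/6N. All BALB/c corneas were lower, and the difference was -0.47 (adjusted p = 0.0021 from limma). It was called in the fits without each of the 8 corneas, but not without BALB/c corneas 1 and 4 together (adjusted p = 0.0531 from limma). The call was also lost with median centring (adjusted p = 0.0181), a replicate block (0.0271) and an empirical null (0.526). The most abundant genes of this list were Timp3, an inhibitor of metalloproteases, with a difference of 0.39 (adjusted p = 0.564), and Adam15, with -0.05 (adjusted p = 0.759).

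Of the adaptors and kinases, 2 of 25 genes were called, beside 5.74% of all genes tested. Both encode subunits of phosphatidylinositol 3-kinase, while the list's other subunit, Pik3ca, had a difference of -0.04 (adjusted p = 0.734 from limma) and overlapped between the strains. Pik3cb, a catalytic subunit, had a difference of -0.50 (adjusted p = 0.00795 from limma), and Pik3r1, a regulatory subunit, had -0.37 (adjusted p = 0.00655). The strains were separated in both. Among the fits without a single cornea, the call of Pik3cb held only without BALB/c cornea 2 (adjusted p = 0.00956) or C57BL/6N cornea 2 (0.0054), and reached 0.0304 without BALB/c cornea 1. In the same fits, that of Pik3r1 held only without BALB/c cornea 1 (adjusted p = 0.00803) or C57BL/6N cornea 3 (0.00447), and reached 0.0231 without C57BL/6N cornea 4. Stat3 and Braf, the most abundant genes of the list, had differences of -0.15 (adjusted p = 0.0842) and -0.12 (adjusted p = 0.451).

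Of the 22 inhibitors and feedback genes, which limit receptor signalling by degradation, dephosphorylation or binding, 0 were called by limma. At an unadjusted p below 0.05 from limma there were 6 of 22, a share near that of all genes tested (6009 of 25402). The voom fit on recovered reads called 0 of the 22. Of all genes tested, 5.74% were called by limma and 5.61% by limma voom. The most abundant were Lrig1, a membrane protein that promotes receptor degradation, with -0.10 (adjusted p = 0.202), and the phosphatase Ptpn1, with 0.43 (adjusted p = 0.0246). Without BALB/c cornea 4, Ptpn1 passed the threshold (adjusted p = 0.0083).

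The 16 target genes are transcribed after receptor activation in many cells. Of them, limma called 2 higher and 1 lower in BALB/c, beside 2.83% higher and 2.91% lower of all genes tested. Called or not, 8 of the 16 had a difference above 0 and 8 below. Etv4, an ETS transcription factor, had rlog values of 8.97, 9.11, 9.22 and 8.86 in BALB/c and 7.98, 8.08, 8.20 and 7.66 in C57BL/6N. This was the largest difference in the lists, 1.06 (adjusted p = 0.00052 from limma), with every BALB/c cornea higher. The related factor Etv5 was higher by 0.52 (adjusted p = 0.0028), and lost the call without BALB/c cornea 3 (0.0115) and without C57BL/6N cornea 3 (0.0102). Myc, a regulator of growth, had a difference of -0.42 (adjusted p = 0.00263) and lost the call without BALB/c cornea 1 (0.0117) and without BALB/c cornea 4 (0.0115). The most abundant target genes were Ccnd1, coding for cyclin D1, with 0.30 (adjusted p = 0.0116), and Phlda1, with -0.05 (adjusted p = 0.78).

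**Figure D5:**
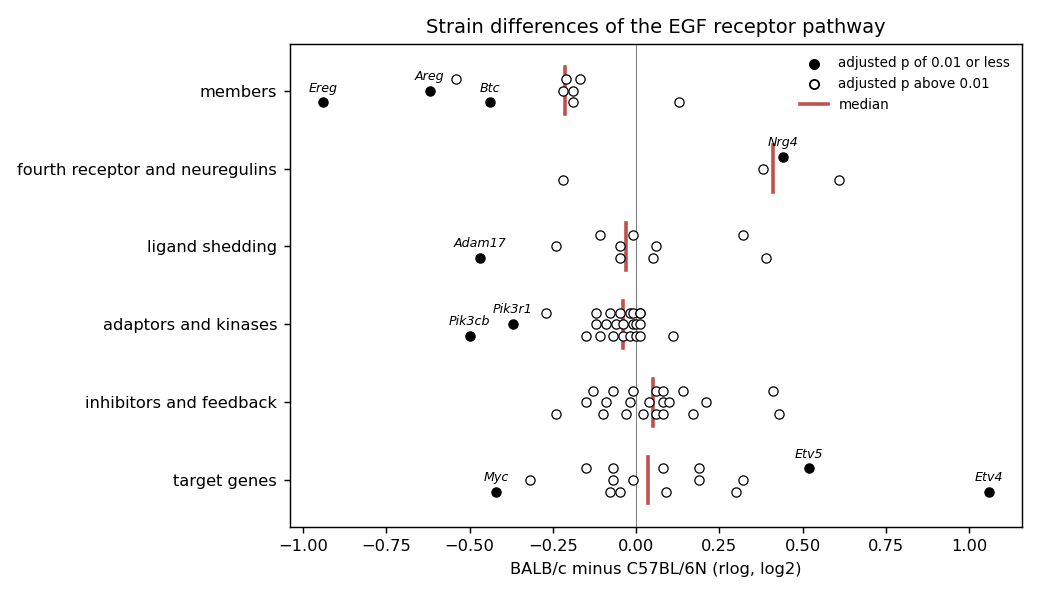
Strain differences as BALB/c minus C57BL/6N rlog value (horizontal axis, log2) of the members and of 5 pathway lists (rows), with 1 point per tested gene, filled where the adjusted p from limma was 0.01 or less, and a line for the median of each list. The members' median of -0.22 lies left of 0, that of the fourth receptor and neuregulins lies right of 0 at 0.41, and the medians of the lists of shedding, adaptors, inhibitors and targets lie between -0.04 and 0.05.

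Markers of other cell types were compared beside these results. Of 6 conjunctiva markers, Krt13, Krt4, Krt19 and Muc4 were called and were lower in BALB/c, with differences of -2.51, -1.17, -0.97 and -0.48, in the same direction as the cluster ligands. The other 2 markers, Muc5ac and Krt8, lay higher in every BALB/c cornea than in every C57BL/6N cornea, with differences of 2.19 (adjusted p = 0.0225 from limma) and 0.40 (adjusted p = 0.0111) that missed the threshold. The summed normalized reads of the 6 markers were between 523805 and 773092 in BALB/c and between 886613 and 1119201 in C57BL/6N. Nearly all of this was Muc4, with a mean of 629956 in BALB/c and 970448 in C57BL/6N, and Krt13 followed with 1562 and 15967. Muc4 was about as abundant as the corneal epithelial marker Krt12 (857862 and 860428). The sum therefore does not measure conjunctival content. Krt4 had 0 reads in BALB/c cornea 1, and Muc5ac had 0 in C57BL/6N corneas 3 and 4. Their part in the strain difference of the ligands was not tested. Of 8 corneal epithelial markers, only Dsg1a was called, with -0.68. No stromal, lens or pigment cell marker was called by limma or by limma voom, with 0, 1 and 0 genes at an unadjusted p below 0.05. Without the 3 corneas with low stromal markers, the differences of the cluster ligands were -0.99 for Ereg (adjusted p = 0.00296 from limma), -0.62 for Areg (0.0333), -0.43 for Btc (0.0503) and -0.64 for Epgn (0.025). Without BALB/c corneas 1 and 4, in which lens and pigment cell markers were high, they were -0.93 (0.00402), -0.58 (0.0599), -0.41 (0.0901) and -0.46 (0.101). None of these differences changed sign, and of the cluster ligands only Ereg passed the threshold in these smaller fits.

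The genes whose pattern over the 8 corneas was most like a called ligand were taken as those with the smallest root mean square difference of rlog values after centring. For Ereg these were Best1 (0.0581), Rbp2 (0.0776) and Gde1 (0.0811). For Areg they were Gpc3 (0.0743), Slc9a9 (0.0905) and Sec31b (0.0914), and for Btc they were C2cd4b (0.0513), Rbpj (0.0571) and Btbd11 (0.0571). Each of these genes was itself called lower in BALB/c, which was largely set by how they were chosen. Only Rbpj lies on chromosome 5. Best1, with a mean rlog value of 4.30, and C2cd4b, with 3.32, were weakly expressed, so their values were shrunk strongly.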

How the data were processed

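Total RNA of 4 BALB/c and 4 C57BL/6N corneas was sequenced by the authors from strand-specific libraries (100 ng of RNA, paired reads of 100 bases). They aligned the reads to pseudo-genomes of each strain built from GRCm38 with TopHat2 2.1.1 and counted them per Ensembl gene, over the exons of all its transcripts, with HTSeq 0.7.1. The values the authors deposited are log2 rlog values of DESeq2 1.30, with decimal commas, and no counts. The sample titles gave the cornea of each column.

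The comparison of the strains used limma 3.58.1 in R 4.3.3 with a mean-dependent prior variance. It covered the 25402 genes whose rlog values averaged 0 or more. P-values were adjusted by Benjamini-Hochberg over all of them, and genes at 0.01 or less were called. The study used the same cutoff, but recalibrated its p-values before adjusting them. The limma p-values were not recalibrated, so the calls made here do not meet the study's criterion as such. With an empirical null, which also rescales the p-values, 0 genes were called. Of the genes not tested, 23218 were at 0 in all corneas and the others averaged less than 0. Single values were compared with exact two-sided permutation tests (scipy 1.17.1). Plots were made with matplotlib 3.10.9 and Python 3.11.15.

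Read counts were recovered by inverting the rlog transformation. Its constants were fitted to the mean counts of 1759 genes in the part of the study's supplementary gene table read here, and the library size factors were those at which counts came out whole. In a separate fit on every other gene, 91.7% of the values of 439 genes left out lay within 0.1 of a whole number at normalized means of 3 to 1000 reads. This fell to 70.6% at 1000 to 5000 reads and 24.5% above, and some values lie this close to a whole number by chance. Counts of genes above 1000 reads are therefore approximate, among them those of the receptors, Hbegf, Krt12 and Muc4 and the sums of epithelial markers. Normalized reads are counts divided by the size factors. Libraries were amplified by PCR, so the counting error of reads is smaller than that of molecules.

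The members, the gene lists and the rule for named genes were chosen with earlier results of these data known. Named were all members, all called genes of the pathway lists, Erbb4 and the neuregulins, the 2 most abundant genes of each other list, and the 3 genes most like each called member. Exon lengths and positions came from GENCODE M21 (GRCm38), a later release than the Ensembl gene model the authors used, and start regions from RefSeq.

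The alternatives were other variance models, filters and scalings, an empirical null, a stromal covariate, a replicate block, limma voom on recovered reads, a threshold of 0.05 and leaving out each cornea. The fits without the 3 corneas with low stromal markers and without the 2 BALB/c corneas with lens and pigment cell markers were chosen after seeing the data. On simulated data for this comparison (24684 genes), 91 of 100 genes with a 2-fold change, 100 of 100 genes with a 4-fold change and 1 of 24484 unchanged genes were called. The simulated counts varied less between corneas than the fitted trend of the count variance, and held no differences in tissue content. Genes with few reads were left unchanged. These shares therefore do not give the power or the rate of false calls in the real corneas.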

Additional observations from a re-analysis of the deposited data

Results flagged for a closer look

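In BALB/c, the rlog value of Erbb4 in cornea 2 (7.89) lay far from the other 3 corneas, of which the nearest had 8.73. The gap was 0.929 of the range of the strain, above Dixon's 95% critical value for 4 samples. This cornea also had the lowest stromal marker values of its strain, and the part of these cells in the value was not tested. In all, 34 groups of 4 values were screened and 1 was marked in this way, where chance alone would mark about 1.7. No other member, neuregulin or receptor ratio was marked.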

How the results depend on the processing

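All 10 members kept the direction of their strain difference in all 20 alternatives. Ereg was called in 19 of them, the exception being the empirical null (adjusted p = 0.277 from limma), Areg in 11, Btc in 8 and Epgn in 4 (robust fit, quantile normalization, stromal covariate and without BALB/c cornea 2). The 3 members, 7 pathway genes and 1458 genes called moved as follows, and the causes were not tested. The empirical null, whose standard deviation was 1.67, called 0 members, 0 pathway genes and 0 genes in all by limma, with 4, 9 and 1730 at an unadjusted p below 0.05. Median centring called 3 pathway genes and 958 genes (413 higher and 545 lower, against 718 and 740). With the stromal covariate there were 11 pathway genes and 2348 genes, and at an adjusted p of 0.05 there were 14 and 2842. Without a single cornea, between 1 and 2 members, 3 and 5 pathway genes and 953 and 1163 genes were called. Without the 3 corneas with low stromal markers there were 1 member, 4 pathway genes and 852 genes, and without the 2 BALB/c corneas with lens and pigment cell markers there were 1, 1 and 447. The titles do not say whether same-numbered corneas were paired. Their deviations correlated at 0.31, -0.53, -0.20 and -0.45, which cannot settle this, since tissue content also differed between corneas. With the replicate block, 1 member (Ereg, adjusted p = 0.00357), 1 pathway gene and 554 genes were called. The strain difference of Erbb3 minus Egfr, -0.01 with all corneas, lay between -0.04 and 0.02 without a single cornea and turned to 0.02 without C57BL/6N cornea 3, 0.01 without C57BL/6N cornea 4 and 0.06 without the 3 corneas with low stromal markers. With the replicate block the ratios of Erbb2 to Egfr, Erbb3 to Egfr and Erbb3 to Erbb2 differed by 0.04, -0.01 and -0.05. The other alternatives moved none of these total counts by more than 1.5 times, though quantile normalization raised the pathway genes called higher from 3 to 5. Of the 20 alternatives, Etv4 was called in 19, Adam17 in 16, Myc in 15, Etv5 in 13, Pik3r1 in 9, Pik3cb in 7 and Nrg4 in 5, and recovered reads per kb moved no level by more than its SD over the corneas. With 4 corneas per strain the exact tests cannot go below 0.0286, and the low read counts of Areg and Nrg4 limit their precision.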
